A study of Rattus norvegicus with 6 samples.

Results

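The enteric nervous system is the network of neurons and glia within the gut wall, and 8 genes that mark its cells were followed in the intestine of rat pups. *Elavl4*, *Uchl1*, *Prph* and *Snap25* are carried by neurons in general, *Ret* and *Sox10* by cells of the neural crest lineage, and *S100b*, *Sox10* and *Gfap* by glia. The genes were listed by name as markers, with earlier results of these data known, and all 8 were measured, of 18166 genes tested. The HFD-sitagliptin group held 3 male Sprague Dawley pups of dams given sitagliptin, an inhibitor of dipeptidyl peptidase 4, and the HFD group held 3 male pups of dams without the drug. Per the study's methods, the dams of both groups ate a high-fat diet from before mating and the drug was given through pregnancy and lactation, so no array of a normal-diet litter is compared here. The pups were 3 weeks old, at weaning, and each gave intestinal RNA to 1 Affymetrix rat gene array. The methods took 1 male pup per litter for the experiments, and p-values measure the spread between these 3 and 3 arrays. Values are on the log2 scale as the authors normalized them, and a difference of 1 is a factor of 2 in signal.

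Enteric neurons and glia arise from neural crest cells that enter the gut before birth and spread along it. They carry the receptor tyrosine kinase RET, which responds to the factor GDNF from the gut mesenchyme, and the transcription factor SOX10, which progenitors and glia keep and neurons lose. The mature cells lie in ganglia between and beside the muscle layers, with fine processes in the mucosa. In whole intestine their RNA is a small part of the total, and fewer such cells cannot be told apart from less RNA per cell.

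The part of the intestine that was sampled differed between arrays, as far as region genes show it. HFD-sitagliptin replicate 1 was the only array with high *Car1*, a carbonic anhydrase of colonic epithelium (12.41, against 3.41 to 4.04), and the only one with low *Si*, a disaccharidase of small intestinal brush border (2.72, against 11.39 to 12.49). *Fabp6*, which binds bile acids in ileal cells, was at 13.16 and 12.62 in the replicate 2 arrays of the HFD-sitagliptin and HFD groups and at 3.61 to 7.36 in the other 4. The differences of the 8 genes are therefore also given without HFD-sitagliptin replicate 1. All 9 epithelial markers were at 7.33 or more on every array, and 9 of 10 smooth muscle markers at 5.75 or more; the tenth, *Casq2*, was at 4.35 to 5.13.

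The promoters of 6 of the 8 genes matched RefSeq's table for the GRCr8 build, which runs from 250 bases before a gene's start to 50 bases after it; *Snap25* and *Sox10* had no entry. They are shown for 3 neuronal markers, whose windows held a short motif searched for on both strands, and 100 bases of each are printed 5′ to 3′ with the motif in capitals. The letters TTCAGCACC, which begin the element bound by the neuronal gene silencer REST, are read on the opposite strand in *Elavl4*, and TATAAA, the TATA box, stands in *Prph* and, on the opposite strand, in *Uchl1*.
*Elavl4* chr5:130367758-130367857, minus strand: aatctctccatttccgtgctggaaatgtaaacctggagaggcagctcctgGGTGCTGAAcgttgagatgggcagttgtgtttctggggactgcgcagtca
*Uchl1* chr14:41849418-41849517, minus strand: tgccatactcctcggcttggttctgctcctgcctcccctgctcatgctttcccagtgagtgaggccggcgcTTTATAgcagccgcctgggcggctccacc
*Prph* chr7:132097189-132097288, plus strand: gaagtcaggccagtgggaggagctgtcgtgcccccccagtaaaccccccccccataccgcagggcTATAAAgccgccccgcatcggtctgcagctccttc
Of 33469 promoters of the same length, 14.2% hold TATAAA and 0.356% hold TTCAGCACC. ACAAAG, a core that SOX proteins bind, is in 18.8% of promoters and CAGCTG, an E-box, in 15.1%, and neither is in the 6 windows. A match is a description of the letters and says nothing of binding.

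For none of the 8 genes was a difference between HFD-sitagliptin and HFD pups detected. The study's threshold asks for a 1.5-fold change or more together with p under 0.05 before adjustment, and 0 of the 8 passed it in limma, against 2.01% of all genes tested. Without a fold threshold, 0 of the 8 had an unadjusted p under 0.05 by limma, against 5.72% of all genes, and 0 by the methods' t-test. Over all genes no adjusted p was under 0.05 by either test, with 1040 unadjusted p-values under 0.05 by limma and 774 by the t-test. In a fit blocked on replicate number 0 of the 8 passed, against 2.62% of all genes, and without HFD-sitagliptin replicate 1 again 0 passed, against 1.63%. The log2 fold changes of the 8 genes, HFD-sitagliptin minus HFD, ran from -0.17 for *Gfap* to 0.37 for *S100b*, with a median of 0.17 against 0.01 over all genes. The values of the groups overlapped for every one of the 8, whereas 5.97% of all genes were higher without overlap and 5.54% lower. HFD-sitagliptin replicate 1 was the highest of the 6 arrays for 5 of the 8 genes, and the share over all genes was not counted. The highest array was HFD-sitagliptin replicate 2 for *Elavl4*, HFD replicate 2 for *Sox10* and HFD replicate 3 for *Gfap*.

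**Figure D1:**
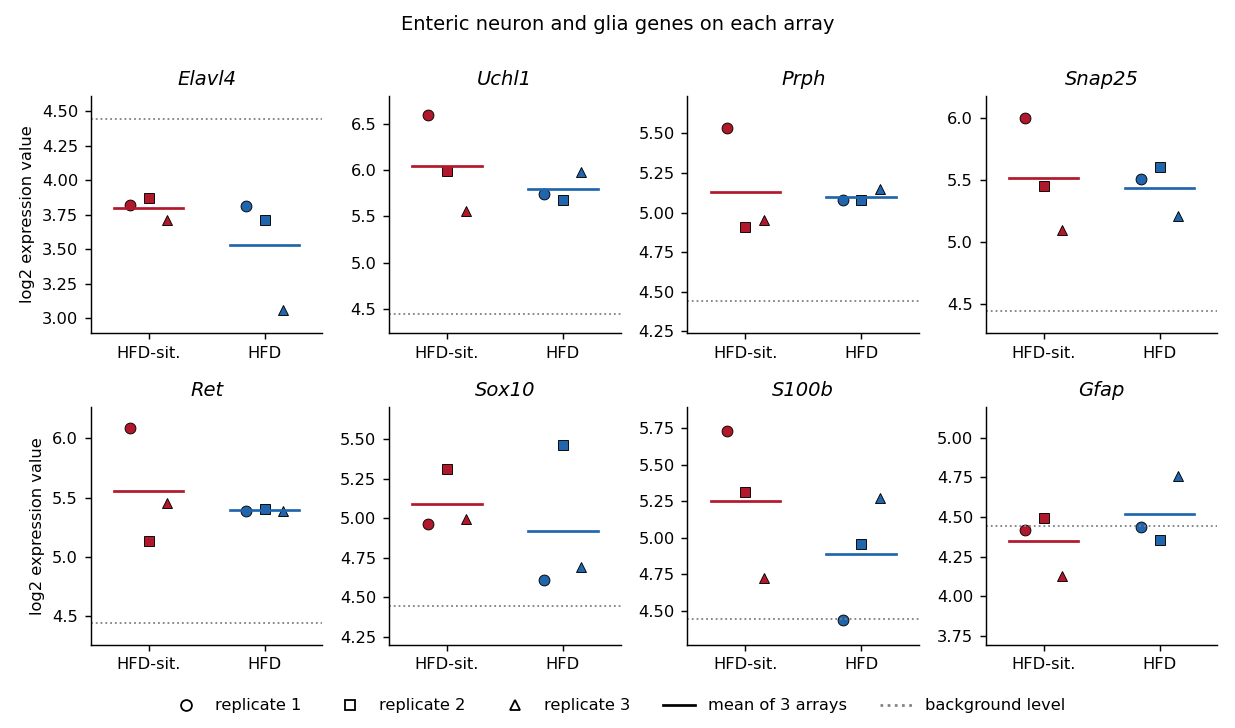
Log2 expression value (y axis) of each of the 8 genes on each array, HFD-sitagliptin on the left and HFD on the right of each panel. Symbols give the replicate number, horizontal bars the mean of 3 arrays and the dotted line the background level of 4.444; the groups overlap in every panel, and the replicate 1 array of the HFD-sitagliptin group is highest for *Uchl1*, *Prph*, *Snap25*, *Ret* and *S100b*.

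*Uchl1*, a deubiquitinating enzyme abundant in neuronal cell bodies, had values of 6.60, 6.0 and 5.55 in HFD-sitagliptin pups and of 5.74, 5.67 and 5.98 in HFD pups. The HFD-sitagliptin pups spanned the HFD pups on both sides. The log2 fold change was 0.25 (95% interval -0.40 to 0.90, limma adjusted p = 0.79), and it was -0.03 without HFD-sitagliptin replicate 1. *Uchl1* was far above the background, here taken as 4.444, which 95% of 1185 olfactory receptor genes did not exceed; such genes are mostly silent outside the nose.

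*Prph* encodes peripherin, an intermediate filament protein of peripheral and enteric neurons. Its values were 5.53, 4.91 and 4.95 in HFD-sitagliptin pups and 5.08, 5.08 and 5.15 in HFD pups. The HFD pups lay close together (SD 0.04), and of the HFD-sitagliptin pups replicate 1 was above them and the other 2 were below. The log2 fold change was 0.03 (95% interval -0.42 to 0.49, adjusted p = 0.96), and it was -0.17 without HFD-sitagliptin replicate 1 (95% interval -0.45 to 0.11).

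*Snap25*, a membrane protein of the complex that fuses synaptic vesicles, had values of 6.0, 5.45 and 5.10 in HFD-sitagliptin pups and of 5.50, 5.6 and 5.20 in HFD pups. The highest and the lowest value were both in the HFD-sitagliptin group. Its log2 fold change was 0.08 (95% interval -0.52 to 0.68, adjusted p = 0.92), and -0.16 without HFD-sitagliptin replicate 1. *Elavl4*, the neuronal RNA binding protein HuD, had values of 3.82, 3.87 and 3.71 in HFD-sitagliptin pups and of 3.81, 3.71 and 3.06 in HFD pups. Apart from HFD replicate 3 these values were nearly level, and the log2 fold change was 0.27 (95% interval -0.25 to 0.79, adjusted p = 0.73). It was 0.04 without HFD replicate 3 and 0.26 without HFD-sitagliptin replicate 1. *Elavl4* lay below the background level on every array, with a mean at percentile 83.3 of the olfactory receptor genes, so no signal above background was detected for it.

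*Ret*, the receptor for GDNF family factors, had values of 6.08, 5.13 and 5.46 in HFD-sitagliptin pups and of 5.39, 5.40 and 5.39 in HFD pups. The HFD pups were almost identical, and the HFD-sitagliptin pups lay on both sides of them. The log2 fold change was 0.16 (95% interval -0.42 to 0.75, adjusted p = 0.84) with all arrays and -0.10 (95% interval -0.45 to 0.25) without HFD-sitagliptin replicate 1. An exact repeat of a value occurs in 3 of the 8 genes, *Ret*, *Prph* and *Elavl4*, and in 28.6% of all genes in these data. For *Ret* and *Prph*, 2 of the 3 HFD values are the same number. Why values repeat was not tested.

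*Sox10*, the transcription factor of neural crest cells and glia, had values of 4.96, 5.31 and 5.0 in HFD-sitagliptin pups and of 4.61, 5.46 and 4.69 in HFD pups. The highest array in each group was replicate 2, the array with the highest *Fabp6*. The log2 fold change was 0.17 (95% interval -0.44 to 0.78, adjusted p = 0.84). It was 0.23 without HFD-sitagliptin replicate 1, 0.01 without HFD replicate 1 and 0.44 without HFD replicate 2. In the last of these fits the unadjusted p was 0.037 and the adjusted p 0.70 (limma). That unadjusted p was the lowest of the 6 fits that each left out 1 array, and the share over all genes was not counted. *S100b*, a calcium binding protein of glia, had values of 5.73, 5.31 and 4.72 in HFD-sitagliptin pups and of 4.43, 4.96 and 5.27 in HFD pups. It had the widest range of the 8 genes, 1.3 log2 units, and a log2 fold change of 0.37 (95% interval -0.40 to 1.13, adjusted p = 0.75), which was 0.13 without HFD-sitagliptin replicate 1. *Gfap*, the intermediate filament protein of astrocytes and of some enteric glia, had values of 4.42, 4.50 and 4.13 in HFD-sitagliptin pups and of 4.44, 4.35 and 4.76 in HFD pups. It was the only one of the 8 with a lower mean in HFD-sitagliptin pups. Its log2 fold change was -0.17 (95% interval -0.57 to 0.23, limma adjusted p = 0.77), or -0.20 without HFD-sitagliptin replicate 1. Its mean level was just under the background level, at percentile 94.7.

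**Figure D2:**
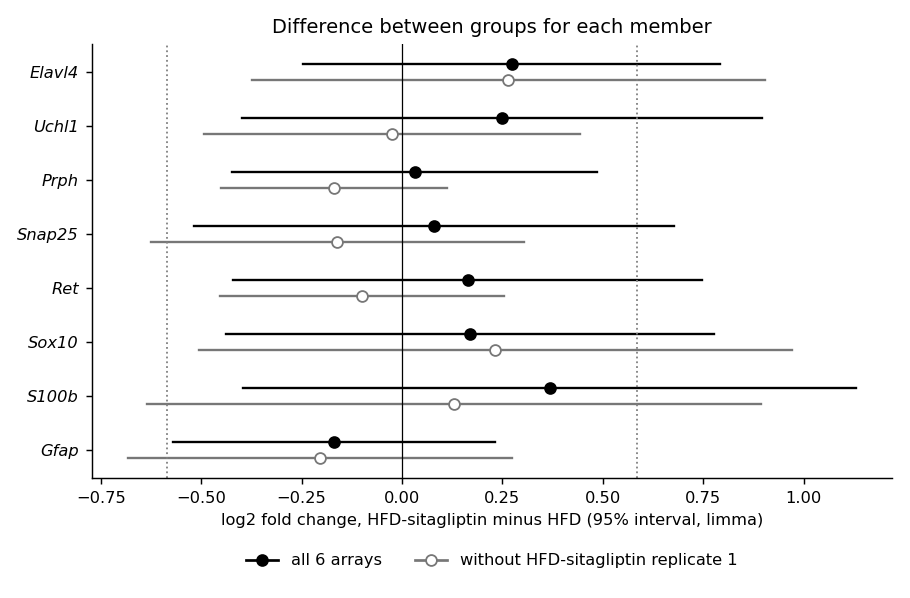
Log2 fold change of each of the 8 genes, HFD-sitagliptin minus HFD (x axis), with its 95% interval from limma, for all 6 arrays (filled) and without HFD-sitagliptin replicate 1 (open). Dotted lines mark a fold change of 1.5 in either direction; all intervals include 0, and the estimates for *Uchl1*, *Prph*, *Snap25* and *Ret* are above 0 with all arrays and below 0 without that array.

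The intervals leave room for changes beyond a fold of 1.5 in *Elavl4*, *Uchl1*, *Snap25*, *Ret*, *Sox10* and *S100b*, so the arrays do not show that the levels were alike. Without HFD-sitagliptin replicate 1, 3 of the 8 genes were higher in HFD-sitagliptin pups, beside 48.6% of all genes. The median log2 fold change of the 8 was then -0.06, against -0.007 over all genes.

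The neuronal and the glial genes are given here as averages over the arrays, without a test. Relative to each gene's own mean, the 4 neuronal genes averaged 0.44, 0.01 and -0.22 in HFD-sitagliptin pups and -0.01, -0.03 and -0.20 in HFD pups. The glial genes *S100b*, *Sox10* and *Gfap* averaged 0.20, 0.20 and -0.22 in HFD-sitagliptin pups and -0.34, 0.09 and 0.07 in HFD pups. The neuronal average was clearly above 0 in 1 array, and the glial average was lowest in 2, HFD-sitagliptin replicate 3 and HFD replicate 1. The pooled genes did not all move together. *Uchl1* and *Prph* had a Pearson r of 0.83, but *Elavl4* had 0.05 with *Uchl1*, -0.04 with *Prph* and 0.48 with *Snap25*. *Sox10* had -0.35 with *Gfap* and 0.24 with *S100b*, and *S100b* had 0.38 with *Gfap*. Likeness to an average is therefore not likeness to each of its genes. Over the 6 arrays the genes most like the neuronal average were *Syt17*, *Tspan1*, *Tgfb3*, *Spdef* and *Mpst* (Pearson r of 0.992 to 0.996 among 10608 candidate genes). All 5 were highest in HFD-sitagliptin replicate 1; *Spdef*, a transcription factor of goblet cells, was at 7.68 there and at 6.48 to 7.0 elsewhere. Those most like the glial average were *Smim5*, *Morn5*, *Junb*, *Zfp534l2* and *Specc1* (r of 0.980 to 0.991 among 10715 candidates). The r values describe a ranking of many genes over 6 arrays, 1 of which stands apart, and carry no test.

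Genes of other cells of the gut wall were also high in HFD-sitagliptin replicate 1. Smooth muscle genes averaged 9.10 in that array and 7.74 to 8.05 in the other 5, over 10 measured genes, and *Actg2*, the enteric smooth muscle actin, was at 12.01 there and at 9.52 to 10.49 elsewhere. Genes of the interstitial cells of Cajal, the pacemaker cells of gut muscle, averaged 6.76 there and 5.61 to 5.99 elsewhere, over 4 genes. Relative to the smooth muscle average of the same array, 7 of the 8 neuron and glia genes had their lowest value in HFD-sitagliptin replicate 1: *Prph* was at -3.56 in that array, -2.83 and -2.85 in the other HFD-sitagliptin pups and -2.98, -2.84 and -2.63 in HFD pups. *S100b* was the exception, with its lowest relative value in HFD replicate 1. A gene that rose less than muscle in HFD-sitagliptin replicate 1 tends to its lowest relative value there by the subtraction alone. The count of 7 is therefore no separate evidence. It also holds *Elavl4* and *Gfap*, which lay below the background level on average. Relative to each gene's own mean, the 4 neuronal genes averaged 0.44 in that array and the smooth muscle genes 1.03. The part of muscle, or of the sampled region, in the differences between groups was not tested.

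*Uchl1*, *Snap25* and *Ret* are also found in enteroendocrine cells, the hormone cells of the epithelium. Of 14 measured genes of these cells, none was past the study's threshold (limma), against 2.01% of all genes, and 1 had an unadjusted p under 0.05, against 5.72%. Their average was 6.13 in HFD-sitagliptin replicate 1 and 5.76 to 6.0 in the other arrays. Their log2 fold changes ran from -0.94 for *Gip* to 0.98 for *Chgb* (limma adjusted p = 0.72 each). *Gip* is the gene of an incretin hormone and *Chgb* that of a granin of secretory granules. Of the 14 genes, 9 were above 0, beside 51.9% of all genes.

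*S100b* is also made by adipocytes. *Adipoq*, the adiponectin gene of adipocytes, was at 6.67, 7.27 and 5.20 in HFD-sitagliptin pups and at 5.09, 6.98 and 6.52 in HFD pups. Its 2 low arrays, HFD-sitagliptin replicate 3 and HFD replicate 1, were the 2 with the lowest *S100b*. The average of 5 adipocyte genes was 5.97, 6.44 and 5.62 in HFD-sitagliptin pups and 5.41, 6.52 and 6.26 in HFD pups, lowest in the same 2 arrays. *Plin1* and *Fabp4* were lowest in these arrays as well, whereas *Cidec* and *Lep* did not have both as their lowest. *Pmp22*, a myelin protein gene that is also active outside nerve, was likewise lowest in the same 2 arrays, at 6.46 and 7.09, while the other 4 arrays were at 8.22 to 9.95. It was picked after its values were seen, from 9 measured genes of myelinating Schwann cells. Their average was lowest in the same 2 arrays, but the genes differed. *Mbp* was highest in HFD-sitagliptin replicate 3, at 7.06, and *Ugt8* was lowest in HFD replicate 3, at 3.60. The part of fat tissue in the *S100b* values was not tested.

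**Figure D3:**
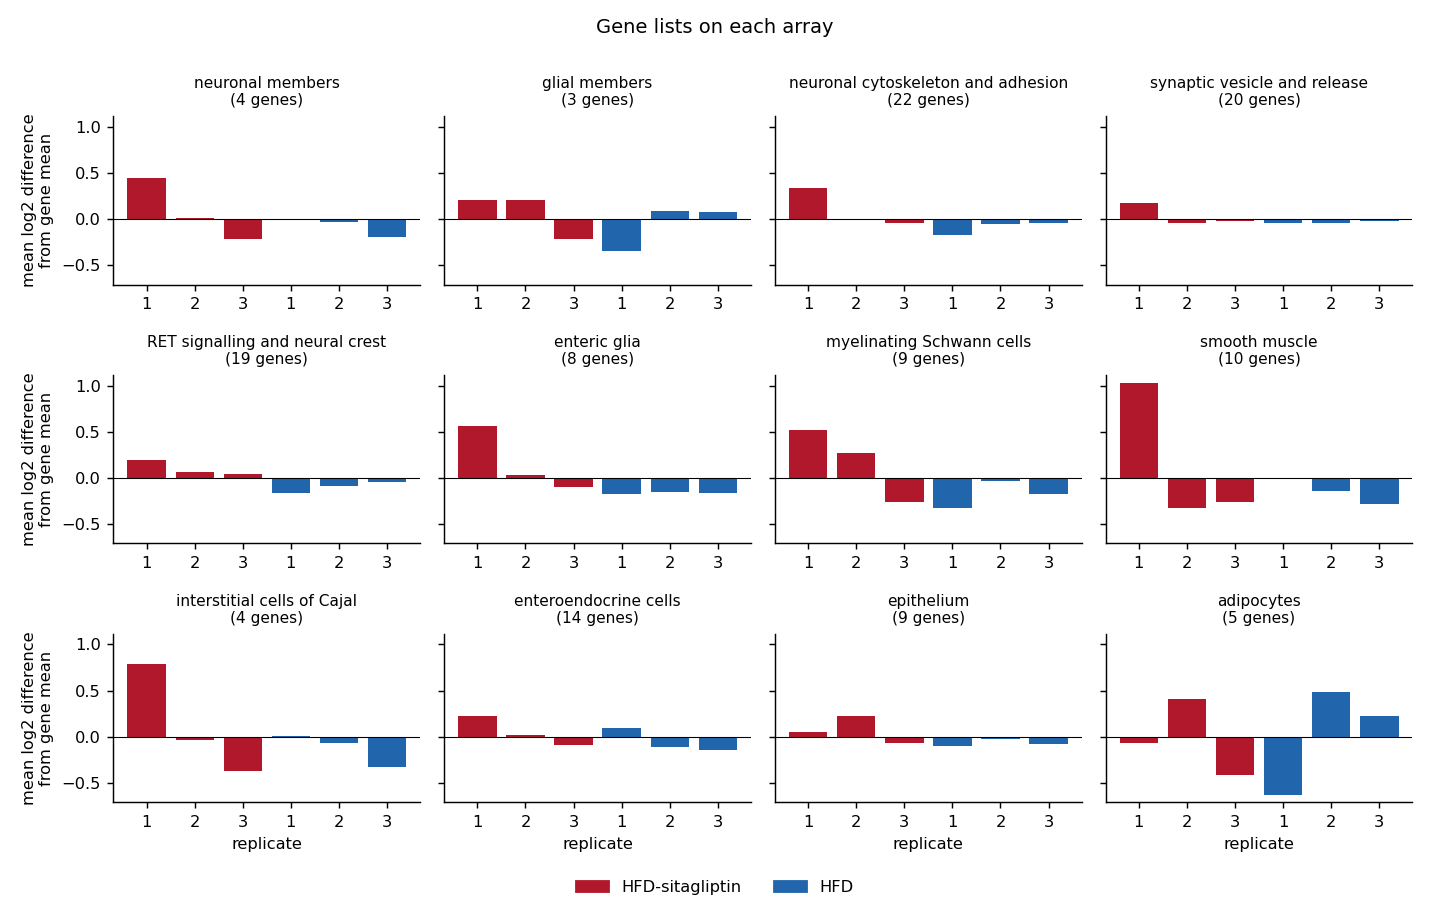
Mean log2 difference from each gene's own mean over the 6 arrays (y axis) for the neuronal and glial genes and for 10 gene lists, by replicate (x axis), HFD-sitagliptin on the left and HFD on the right of each panel. HFD-sitagliptin replicate 1 is highest for the neuronal genes (0.44), enteric glia (0.57), smooth muscle (1.03) and interstitial cells (0.78). It is also highest for Schwann cells (0.52), neuronal cytoskeleton (0.33), enteroendocrine cells (0.22), RET and neural crest (0.19) and synaptic vesicle (0.17). It is not highest for the glial genes, epithelium or adipocytes. The adipocyte genes are lowest in HFD replicate 1 (-0.63) and HFD-sitagliptin replicate 3 (-0.42).

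Further genes of enteric neurons and glia, in 4 lists that hold none of the 8, gave a few differences. Of 69 measured genes, 4 were past the study's threshold, all 4 higher in HFD-sitagliptin pups (5.8%). Of all genes tested, 0.705% were higher past it. The lists were chosen with earlier results of these data known, so the larger share is no independent evidence. None of the 69 was lower, and the adjusted p of each of the 4 was 0.72 (limma). The median log2 fold change of the 69 genes was 0.16 against 0.01 over all genes. A median above 0 was not particular to them. It was 0.38 for smooth muscle, 0.33 for interstitial cells of Cajal, 0.27 for myelinating Schwann cells and 0.20 for enteroendocrine cells. Epithelium had 0.13 and hindgut and colon genes 0.55, while adipocyte genes had -0.14, ileal genes -0.61 and brush border genes -1.85. For 41 of the 69 the highest value was in HFD-sitagliptin replicate 1; the share over all genes was not counted, so this is not read as particular to these lists. Without that array the median of the 69 genes was 0.07 and 1 of them was past the threshold. It was *Kcna1*, which was not among the 4. Of all genes, 0.732% were then higher past the threshold. With each array centred on its median, which moved the median of all genes to -0.05 and left 81 genes higher and 390 lower past the threshold in place of 128 and 237, none of the 69 was higher and 1, *Pclo*, was lower (0.446% and 2.15% of all genes).

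Over all genes, 0.705% were higher and 1.3% lower past the threshold, with a median of 0.01. Of 20 measured genes of the synaptic vesicle and its release, 1 was higher, 0 were lower and 19 were not past the threshold (median 0.09). The higher one was *Rab3a*, the small GTPase of synaptic vesicles, with values of 5.28, 4.94 and 4.97 in HFD-sitagliptin pups and of 4.43, 4.56 and 4.43 in HFD pups. The groups did not overlap, and the log2 fold change was 0.59 (95% interval 0.26 to 0.92), just over a fold of 1.5. It was 0.48 without HFD-sitagliptin replicate 1 (95% interval 0.19 to 0.77), under that fold. Other genes of the vesicle were not past the threshold: *Syp*, the vesicle protein synaptophysin, had a log2 fold change of 0.17, *Syt1*, the calcium sensor of release, one of 0.04 and *Vamp2*, which pairs with SNAP25 in membrane fusion, one of 0.07. *Pclo* and *Bsn*, scaffold proteins of the active zone, had log2 fold changes of -0.53 and 0.24, and *Syt4*, a synaptotagmin, one of 0.25 at a level below background.

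Of 22 measured genes of the neuronal cytoskeleton and of adhesion, 1 was higher and 0 were lower past the threshold (median 0.15). The shares of all genes were 0.705% higher and 1.3% lower (median 0.01). *Stmn3*, a neuronal protein of the stathmin family that acts on microtubules, had values of 4.71, 4.28 and 4.54 in HFD-sitagliptin pups and of 3.71, 3.78 and 4.16 in HFD pups. The groups did not overlap, with a log2 fold change of 0.63 (95% interval 0.19 to 1.06), but the mean level was below the background level. Leaving out HFD-sitagliptin replicate 1 gave *Stmn3* a value of 0.53 (95% interval 0.06 to 0.99), under a fold of 1.5. The paralogs of *Elavl4*, *Elavl2* and *Elavl3*, had log2 fold changes of 0.30 and 0.32 with groups that did not overlap, under the fold of 1.5 and also below the background level. *Basp1*, a membrane protein of growing axons, had a log2 fold change of 0.42 (95% interval -0.03 to 0.86) at a level well above background, with groups that overlapped. The neurofilament genes *Nefl*, *Nefm* and *Nefh* had log2 fold changes of 0.35, 0.10 and 0.01, and *Tubb3*, the neuronal tubulin, was at 5.30 in HFD-sitagliptin replicate 1 and at 3.38 to 4.24 in the other 5 arrays.

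Of 19 measured genes of RET signalling and the neural crest, 2 were higher and 0 were lower past the threshold (median 0.17). The shares of all genes were 0.705% higher and 1.3% lower (median 0.01). *Hand2*, a transcription factor that enteric neurons need and that gut mesenchyme also carries, had values of 6.63, 5.96 and 6.10 in HFD-sitagliptin pups and of 5.82, 5.74 and 5.29 in HFD pups. The groups were separate by a narrow margin, and the log2 fold change was 0.61 (95% interval 0.06 to 1.17), or 0.41 without HFD-sitagliptin replicate 1. *Foxd3*, a transcription factor of neural crest cells, was at 5.73, 5.40 and 5.38 in HFD-sitagliptin pups and at 4.23, 4.53 and 5.44 in HFD pups. HFD replicate 3 was level with the HFD-sitagliptin pups, so the groups overlapped. The log2 fold change was 0.77 (95% interval 0.00 to 1.53), or 0.65 without HFD-sitagliptin replicate 1 (95% interval -0.26 to 1.57). A block for the replicate number took *Foxd3* below the threshold, while the other 3 genes stayed past it (0.892% of all genes were higher past it in that fit).

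None of the partners of *Ret* named here was past the threshold. *Gdnf*, its ligand, had a log2 fold change of 0.32, *Gfra1*, the co-receptor for GDNF, one of 0.17, *Nrtn*, the ligand neurturin, one of 0.36 and *Gfra2*, the co-receptor for neurturin, one of 0.26. *Ngfr*, a receptor that marks neural crest cells and glia, had a log2 fold change of 0.44 and *Tlx2*, a homeobox gene of enteric neurons, one of 0.36, both under a fold of 1.5.

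Of 8 measured genes of enteric glia, 0 were past the threshold (limma), beside 2.01% of all genes. However, 2 had an unadjusted p under 0.05 by limma (2.8% of all genes had one and were higher). All 8 had a log2 fold change above 0 (median 0.39), as did 51.9% of all genes. *Lgi4*, a secreted glial protein, was at 5.24, 5.0 and 4.91 in HFD-sitagliptin pups and at 4.51, 4.66 and 4.61 in HFD pups. These groups did not overlap, and the log2 fold change was 0.46 (95% interval 0.14 to 0.77), or 0.36 without HFD-sitagliptin replicate 1. *Kcna1*, a potassium channel gene, was at 4.0, 4.67 and 4.23 in HFD-sitagliptin pups and at 3.68, 4.0 and 3.65 in HFD pups, below the background level on average (log2 fold change 0.53, or 0.68 without HFD-sitagliptin replicate 1). *Scn7a*, a sodium channel gene, was at 7.55, 6.59 and 6.55 in HFD-sitagliptin pups and at 6.12, 6.53 and 6.39 in HFD pups. Its groups did not overlap, by a narrow margin, and the log2 fold change was 0.55 (95% interval -0.15 to 1.26), or 0.22 without HFD-sitagliptin replicate 1. *Cdh19*, a cadherin of glia and Schwann cells, had a log2 fold change of 0.33, or 0.02 without that array. *Cryab*, a small heat shock protein of glia and also of muscle, was at 7.75 in HFD-sitagliptin replicate 1 and at 4.94 to 5.76 in the other 5. Without that array the median of the glial list was 0.05. It was then 0.15 for the RET and neural crest list, 0.03 for the cytoskeleton and adhesion list and -0.0009 for the synaptic vesicle list.

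**Figure D4:**
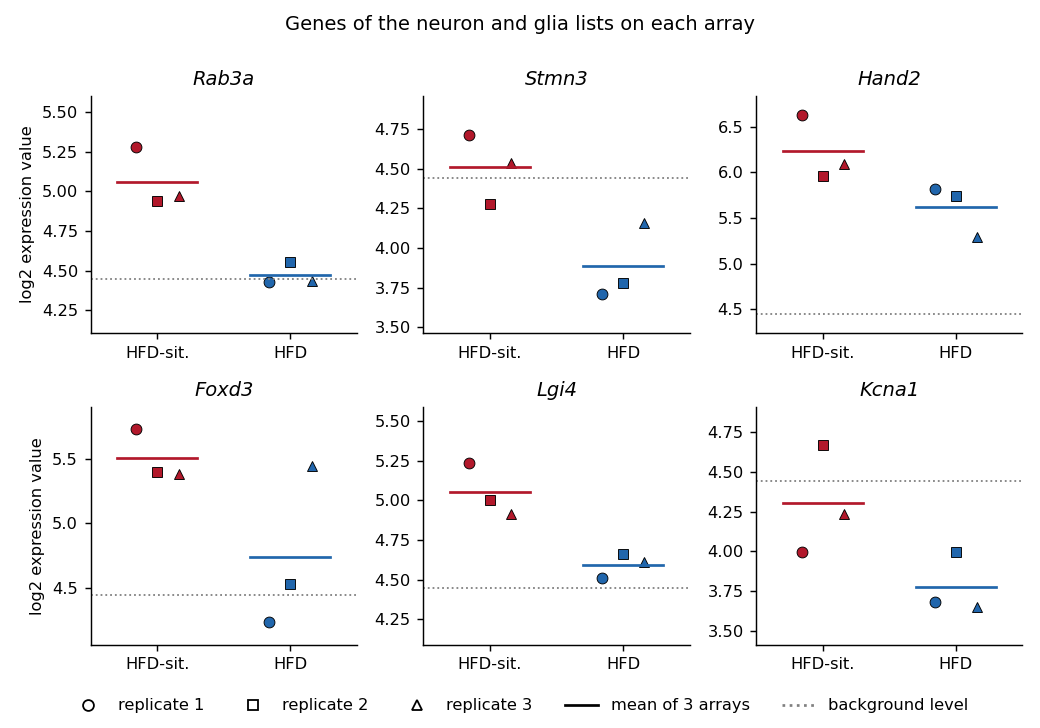
Log2 expression value (y axis) on each array of 6 genes from the neuron and glia lists, HFD-sitagliptin on the left and HFD on the right of each panel. Symbols give the replicate number, bars the mean of 3 arrays and the dotted line the background level of 4.444. The groups do not overlap for *Rab3a*, *Stmn3*, *Hand2* and *Lgi4* and overlap for *Foxd3*. For *Kcna1* they meet at an equal value (4.0) in HFD-sitagliptin replicate 1 and HFD replicate 2.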

How the data were processed

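Intestinal RNA of 6 pups was hybridised to Affymetrix rat gene arrays. GeneSpring was used by the authors for normalization, and they deposited 1 log2 value per transcript cluster and array; the algorithm is not given in the sources used here, and the log2 scale was taken from the range of the values, up to 13.55. The platform's table gives a single gene symbol for 18511 of 36685 clusters, and the cluster with the highest mean was taken for each gene, which left 18166 genes with no filter on low values. Of the genes listed, 12 were not analysed here, 7 of them in the neuron and glia lists. Precision is limited by the number of arrays.

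The comparison used limma 3.58.1 (R 4.3.3) on all 6 arrays with no covariate and with Benjamini-Hochberg adjustment over all genes. The members and gene lists were chosen with earlier results of these data known. In each list the genes past the threshold and up to 4 with the smallest p were to be named. Other list genes, among them *Tubb3*, *Cryab*, *Gip*, *Syp*, *Syt1*, *Vamp2*, the neurofilaments, *Gdnf*, *Nrtn*, *Chgb*, *Casq2*, *Adipoq*, *Plin1*, *Fabp4*, *Cidec*, *Lep*, *Pmp22*, *Mbp* and *Ugt8*, were named after their values were seen. Neither the labels nor the methods pair the pups. After subtraction of group means, arrays of the same number correlated at 0.146, 0.284 and 0.148 across genes and the others at -0.24 to 0.02. The highest, 0.284, was between the replicate 2 arrays, which share high *Fabp6*. Values centred within each group are not independent, so these correlations cannot show that the numbers pair the pups. A second fit added the numbers as a block, as an alternative only.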

Additional observations from a re-analysis of the deposited data

How the results depend on the processing

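No alternative put any of the 8 genes past the threshold. Genes past it over all were 365 and, among the 69 list genes, 4. The methods' t-test gave 158 and 2, a fold of at least 2 gave 57 and 0, and no fold threshold gave 1040 and 8. Among the list genes, array weights, quantile normalization, leaving out dim genes and leaving out both replicate 2 arrays gave 2 each, and centring each array on its median gave 1. When single arrays were left out, the counts were 239 (without HFD replicate 1) to 880 (without HFD-sitagliptin replicate 3) over all genes and 1 (without HFD-sitagliptin replicate 1) to 3 among the list genes; without HFD-sitagliptin replicate 3 or any HFD array that count was 2. *Rab3a* and *Stmn3* passed in 3 of these 6 fits, *Hand2* in 2 and *Foxd3* in 1. Over these fits *Uchl1* ran from -0.025 to 0.50, *Prph* from -0.17 to 0.14, *Snap25* from -0.16 to 0.29 and *Ret* from -0.10 to 0.38, with values below 0 without HFD-sitagliptin replicate 1 and, for *Snap25*, without HFD replicate 3 (-0.04). *Elavl4* ran from 0.04 to 0.42, *Sox10* from 0.01 to 0.44, *S100b* from 0.13 to 0.63 and *Gfap* from -0.25 to -0.05. *Prph* was also below 0 with array weights (-0.11), quantile normalization (-0.026) and median centring (-0.031), and *Ret* with array weights (-0.015). With the replicate number as a block 476 genes passed over all and 3 of the list genes, without *Foxd3*, and no other call named in the text changed. The cause of these changes was not tested. *Elavl4*, *Gfap*, *Stmn3*, *Kcna1*, *Elavl2*, *Elavl3*, *Cdh19*, *Tubb3*, *Nefm*, *Syt4* and, of the adipocyte genes, *Lep* lay below the background level on average, which limits what their values show.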
